A study of Homo sapiens with 9 samples.

Results

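RNA from KYSE180 cells carrying a second hairpin against EZH2 (shEZH2#3) was compared with RNA from cells carrying a luciferase hairpin (shluc), with all cells given 6 Gy of ionizing radiation. KYSE180 is a human esophageal squamous cell carcinoma line, which the series title calls KDM6A-deficient. The comparison used 3 libraries per group, 6 of the 9 libraries in the series, and all 57905 genes of the count table. The other 3 libraries carry another EZH2 hairpin (shEZH2#1) and enter where values are set side by side and in the estimate of the spread between libraries. The genotype label reads WT for shluc and EZH2 knockout for the hairpin libraries, while the titles name hairpins. The groups were taken from the titles, and the residual EZH2 RNA is given below. Every library was irradiated, so nothing here separates the hairpin's effect from its effect after irradiation, and the hairpin was tested in 1 line. The p-values set the difference between groups against the spread between libraries of a group, estimated over all 9 libraries. No label says whether replicates were separate cultures, so that spread may be technical in origin.

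EZH2 is the methyltransferase of Polycomb repressive complex 2, which places the trimethyl mark on lysine 27 of histone H3 and needs the partners EED and SUZ12. The mark is tied to repressed chromatin at developmental genes, and the demethylases KDM6A and KDM6B remove it. In squamous carcinoma cells EZH2 is commonly high in dividing cells and is itself a target of the cell cycle factors of the E2F family. GC content, the share of G and C among a transcript's bases, differs widely between human genes, and read counts in RNA sequencing can depend on it.

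Fold changes of this comparison followed GC content, and 2 coding stretches show how far transcripts differ. KIF11, a kinesin that separates the spindle poles, had the largest fall in the lowest decile of genes by GC content, among genes that met the conditions given below. CITED4, a small transcriptional coactivator that binds CBP and p300, had the largest rise in the highest decile under the same conditions. Each stretch is 150 bases from the middle of the coding sequence of the GENCODE 29 transcript, 5′ to 3′ on GRCh38, with G and C in capitals.
KIF11: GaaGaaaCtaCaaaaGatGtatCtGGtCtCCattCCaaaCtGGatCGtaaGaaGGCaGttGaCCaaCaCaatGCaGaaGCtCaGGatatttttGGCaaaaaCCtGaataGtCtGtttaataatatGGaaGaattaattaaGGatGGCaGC
CITED4: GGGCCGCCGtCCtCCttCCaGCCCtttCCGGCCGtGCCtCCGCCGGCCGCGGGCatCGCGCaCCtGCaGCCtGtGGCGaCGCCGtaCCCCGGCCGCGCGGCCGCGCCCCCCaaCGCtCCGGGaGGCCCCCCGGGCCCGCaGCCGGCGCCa
The KIF11 stretch covers coding bases 1510 to 1659 of 3168 (gene at chromosome 10, 92593286 to 92655395, plus strand), and the CITED4 stretch bases 202 to 351 of 552 (chromosome 1, 40861051 to 40862366, minus strand). G and C make up 37.3% of the KIF11 stretch and 82.7% of the CITED4 stretch, and 38.3% and 73.5% of the whole transcripts. KIF11 stood at 7.37, 10.7 and 8.67 CPM (counts scaled to library size) in shluc replicates 1 to 3 and at 3.6, 2.37 and 4.31 in shEZH2#3. CITED4 stood at 62.4, 37.7 and 74.5 CPM in shluc and at 246, 260 and 215 in shEZH2#3. For both genes the groups did not overlap, which was a condition of their choice. The other conditions were a mean of at least 5 CPM and a call both without and with the correction that follows. The log2 fold change of KIF11 was -1.37 ± 0.23 (approximate standard error, SE; adjusted p = 0.000168) and that of CITED4 was 2.05 ± 0.20 (adjusted p = 3.2e-06). When GC content and length were corrected for in each library, both changes shrank and both remained past the threshold, at -0.79 (adjusted p = 0.00995) and 1.14 (adjusted p = 1.09e-05).

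Library totals were 18563879 to 19508444 estimated counts in shluc and 18366510 to 21152006 in shEZH2#3, where 1 count was 0.0399 to 0.0624 CPM. Libraries of a group differed by more than counting noise (chi-square per degree of freedom 19.21 to 82.06), so each was kept as its own sample. Counts were more concentrated in shEZH2#3, where the 100 most abundant genes took 36.2 to 42.6% against 32.4 to 34.8% in shluc. A pair of libraries stand apart below, shluc replicate 2 in its GC trend and shEZH2#3 replicate 1 in its short transcripts. Markers of squamous epithelium were mostly absent: KRT14, KRT6A, KRT6B, KRT13, SOX2 and DSG3 had at most 0.286 CPM in any of the 6 libraries, KRT5 0.343 to 0.718 and TP63 0.11 to 0.877. KRT17 (960 to 1310 CPM) and SFN (323 to 675) were present, and the simple epithelial keratins KRT8 (3890 to 7000) and KRT18 (2510 to 4850), looked up after the others were seen, were among the abundant RNAs. Of the fibroblast markers COL1A2 and PDGFRA were at 0 in all 6 libraries and COL1A1 had 42 to 80.3 CPM, and of the immune markers PTPRC, CD3D, CD3E and MS4A1 were at 0. Summed over each list, fibroblast markers had 59.6 to 68.4 CPM in shluc and 79.7 to 118 in shEZH2#3, immune markers 18.8 to 22.5 and 25.5 to 30.8, and endothelial markers 14.1 to 19.9 and 28.4 to 32.8, nearly all of the last from CDH5.

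EZH2 RNA was lower in every shEZH2#3 library. EZH2 (ENSG00000106462) stood at 18.4, 20.1 and 19.5 CPM in shluc and at 9.67, 11 and 9.11 in shEZH2#3, a log2 fold change of -0.96 ± 0.18 (adjusted p = 0.000433) that was -0.60 (adjusted p = 0.0121) once GC content and length were corrected for. EED, which reads the mark and activates EZH2, had 21.2, 23 and 22.3 CPM against 12.6, 9.66 and 14.6. EED fell by 0.85 on the log2 scale (adjusted p = 0.00352), with -0.57 after the correction (adjusted p = 0.0521). SUZ12, the scaffold subunit, overlapped between the groups at 3.64 to 6.14 and 1.75 to 4.58 CPM (-0.55 ± 0.29, adjusted p = 0.125, and 0.02 after the correction). It passed without shEZH2#3 replicate 3 (-0.84, adjusted p = 0.0426). JARID2, which helps recruit the complex, fell by 0.58 on the log2 scale (adjusted p = 0.0244), a call lost without shluc replicate 2 (adjusted p = 0.149), shEZH2#3 replicate 2 (0.0722) or shEZH2#3 replicate 3 (0.0641). Its corrected value was -0.48 (adjusted p = 0.0411). That call was lost without shluc replicate 1 (0.0641) or 2 (0.208) or shEZH2#3 replicate 2 (0.133) or 3 (0.11). EZH1, the paralog of EZH2, had -0.11 ± 0.22 (adjusted p = 0.708). Of 11 tested subunits of the complex 5 fell and none rose (45.5% lower, against 19.8% of all tested genes), and 4 fell after the correction (36.4%, against 13%). Only 2 subunits fell in both fits. The median of the 11 subunits was -0.55, and -0.24 corrected. Their median GC content, 45.2%, lies in a decile of genes whose own uncorrected median was -0.41.

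Enzymes on the opposite side of the lysine 27 balance moved in different directions. KDM6A RNA was at 3.26 to 4.75 CPM in shluc and 2.82 to 3.89 in shEZH2#3, with overlapping groups (-0.19 ± 0.24, adjusted p = 0.542; 0.32 after the correction, adjusted p = 0.276); an RNA level does not show whether the protein is made. KDM6B rose from 16.6, 15.5 and 15.7 to 34.7, 27.4 and 29.6 CPM (0.94 ± 0.15, adjusted p = 0.000118), a call lost after the correction (0.34, adjusted p = 0.0925). The acetyltransferases CREBBP and EP300, which place acetyl groups on the same lysine, both fell. CREBBP had 55.9, 65.4 and 39.2 CPM against 26.1, 32.3 and 36.8 (-0.75 ± 0.18, adjusted p = 0.00274; -1.06 corrected). EP300 had -0.74 ± 0.19 (adjusted p = 0.00398), or -0.46 without shluc replicate 2 (adjusted p = 0.0252). The histone H3 lysine 4 methyltransferase KMT2C had -1.23 ± 0.22 (adjusted p = 0.000324) and its complex partner ASH2L -0.92 ± 0.16 (adjusted p = 0.000244). Of the 12 tested members of this list, KDM6B alone rose and 5 fell (41.7%), and 5 fell with none higher after the correction. Subunits of Polycomb repressive complex 1 had 3 rises and 2 falls of 19 (median 0.12), and 1 and 3 after the correction (median -0.04), shares of 15.8% and 10.5% that lie under the 24.4% higher and 19.8% lower of all tested genes.

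In all, 5861 of 13252 tested genes differed between shEZH2#3 and shluc (44.2%), 3237 higher (24.4%) and 2624 lower (19.8%). The median log2 fold change over all tested genes was -0.01, and its median SE was 0.2. The differences were mostly moderate: 931 genes (7.03%) were called higher with a log2 fold change of at least 1 and 612 (4.62%) lower by as much, or 276 (2.08%) and 219 (1.65%) with the GC and length correction. With that correction, applied as a smooth curve per library, 3132 genes were called (23.6%), 1404 higher (10.6%) and 1728 lower (13%), with a median over all genes of -0.05. Without shluc replicate 1 the corrected fit called 1138 genes lower. Both fits called 1938 genes with 1 shared sign (14.6%): 1099 rose (8.29%) and 839 fell (6.33%). Their signs differed in 34 genes (0.257%). The uncorrected fit alone called 3889 genes (29.3%) and the corrected fit alone 1160 (8.75%). All 3 shEZH2#3 libraries lay above all 3 shluc libraries in 3561 genes (26.9%) and below them in 3442 (26%). Upper quartile scaling moved the median of all genes to -0.18 and the split to 2421 higher and 3720 lower, so directions close to 0 depend on the scaling.

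The direction of change was ordered by the GC content of the transcript. Genes called higher had a median GC content of 59.6% and genes called lower 42.7%, against 50.3% over all tested genes. In the lowest decile of genes by GC content (median 37.5%, 1295 genes) the median log2 fold change was -0.60, with 10 genes higher and 480 lower. In the fifth decile (48.5%) the median was -0.20, in the sixth (51.8%) 0.06 and in the seventh (54.9%) 0.31. In the highest decile (64.8%) it was 0.70, with 843 genes higher and 9 lower. Upper quartile scaling changed these end medians to -0.77 and 0.54. With the correction, which removes such a trend by construction, the medians of the deciles lay between -0.08 and -0.02, and genes called higher and lower had median GC contents of 53.5% and 54.2%.

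**Figure D1:**
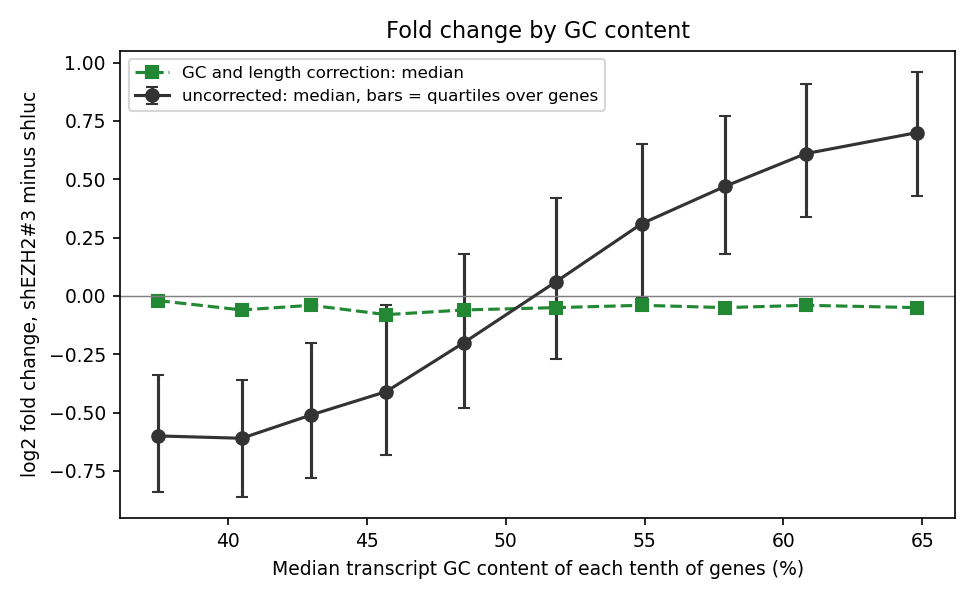
Median log2 fold change (shEZH2#3 minus shluc) of each decile of tested genes against its median transcript GC content in percent; black points and bars are uncorrected medians and quartiles over genes, green squares the medians with the GC and length correction. Uncorrected medians run from -0.60 at 37.5% to 0.70 at 64.8%, and corrected medians stay near 0.

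Relative to the mean of the 9 libraries, each of the 6 libraries had a trend, with opposite signs in the groups. Each library's log2 CPM was taken as a deviation from the gene's mean over the 9 libraries and ranked against GC content across 12949 genes, which are not independent replicates and share the library. The rank correlations were -0.39, -0.69 and -0.51 in shluc replicates 1 to 3 and 0.37, 0.64 and 0.50 in shEZH2#3. In shEZH2#1, which enters the mean, they were -0.25, 0.04 and 0.25. Signs are relative to that mean, so groups that differ along GC content tend to opposite signs by construction. The deviations changed by -0.15, -0.45 and -0.20 log2 units per 10 percentage points of GC in shluc and by 0.19, 0.35 and 0.23 in shEZH2#3. The group means of the rank correlation differed by 1.03, and the two-sided exact permutation test over the 3 against 3 libraries gave p = 0.1, the smallest it allows. The steepest trends were in shluc replicate 2 and shEZH2#3 replicate 2. Between-group separation held at each end, since in the lowest decile the shluc medians were 0.14 to 0.53 and the shEZH2#3 medians -0.42 to -0.15. No label gives a preparation or sequencing batch, so a within-batch value could not be had, and a batch shared by a group's libraries cannot be told apart from the hairpin.

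**Figure D2:**
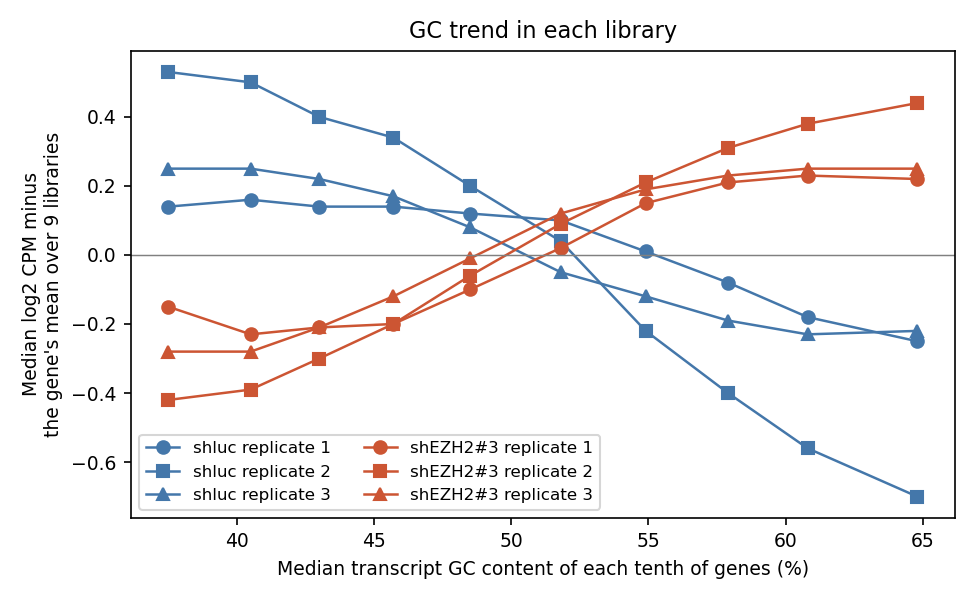
Median deviation of log2 CPM from each gene's mean over 9 libraries, by decile of genes in order of transcript GC content (percent), 1 line per library, shluc in blue and shEZH2#3 in red. The shluc lines slope down and the shEZH2#3 lines slope up, with shluc replicate 2 the steepest.

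The trend lay with the body and end of the transcript more than with its start. In 8860 protein-coding genes the rank correlation of the fold change was 0.73 with the GC content of the whole transcript, 0.69 with that of the coding sequence, 0.69 with that of the last codon positions and 0.67 with that of the part after the coding sequence. It was 0.15 with the part before the coding sequence and 0.12 with the promoter (250 bases before to 50 after the start in RefSeq), both of which track the whole transcript's GC content weakly (0.28 and 0.21). With transcript length it was -0.32. The trend appeared at every level of expression, with rank correlations of 0.58, 0.68 and 0.64 in the lowest, middle and highest abundance terciles. It was 0.72 in protein-coding genes, 0.32 in 722 long noncoding genes and 0.27 in 428 pseudogenes. Long noncoding genes and pseudogenes had median log2 fold changes of 0.42 and 0.46.

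Chromosomes lined up in the same order. Across chromosomes 1 to 22 and X, the rank correlation between a chromosome's median GC content and its median log2 fold change was 0.97 (23 chromosomes, which share the libraries), and 0.52 with the correction. Chromosome 19 had the highest median of these, 0.51, at a GC content of 59.8%, with 467 genes higher and 45 lower of 929. Chromosome 22 had 0.44 at 57.4%. Chromosomes 18 and 13 were lowest, at -0.45 and -0.44, with GC contents of 44.0% and 42.9%. The zinc finger genes (ZNF) of chromosome 19 did not share the chromosome's median. The 143 of them tested have a median GC content of 43.5% and had a median of -0.45, with 16 higher and 23 lower, or 7 and 9 with the correction (median -0.19).

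Transcript length was tied to GC content (rank correlation -0.34 in protein-coding genes), and single libraries stood apart along it. Genes with transcripts under 600 bases (177 genes) had a median log2 fold change of 1.0, against -0.39 for 3492 genes of 4800 bases or more, and 0.15 and -0.07 with the correction. The short genes' median deviation was 1.26 in shEZH2#3 replicate 1, and 0.01 and -0.04 in replicates 2 and 3. In shluc it was -0.98 in replicate 2 and -0.30 and -0.03 in replicates 1 and 3. The rise of short transcripts thus came from 1 library of each group. It touches the mitochondrial and ribosomal protein genes below, and its part in other results was not tested.

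**Figure D3:**
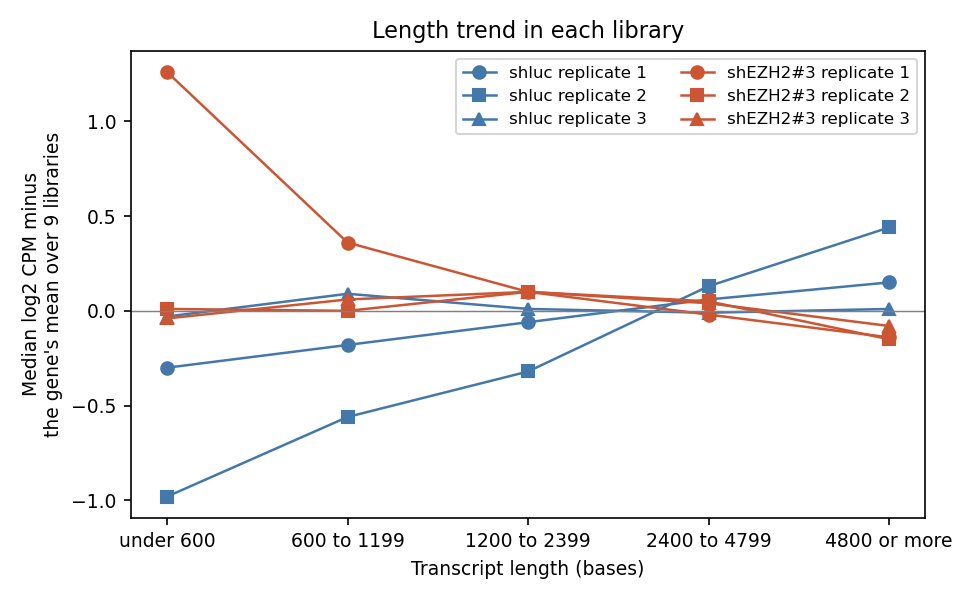
Median deviation of log2 CPM from each gene's mean over 9 libraries, by transcript length class in bases, 1 line per library. At under 600 bases shEZH2#3 replicate 1 stands at 1.26 and shluc replicate 2 at -0.98, while the other 4 libraries lie between -0.30 and 0.01.

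Some genes rose in both fits with no overlap between the groups. DHRS3, which reduces retinaldehyde to retinol, stood at 2.9, 2.35 and 5.27 CPM in shluc and at 21.7, 25 and 31.7 in shEZH2#3 (2.91 ± 0.25, adjusted p = 5.03e-07; 2.52 corrected). EFNA3, an ephrin ligand anchored to the cell surface, stood at 11.4, 11.9 and 13.3 against 64.3, 50.6 and 53.4 CPM (2.20 ± 0.16, adjusted p = 1.12e-07; 1.51 corrected). ACTA2, smooth muscle actin, stood at 2.72, 2.59 and 2.2 against 11.7, 10.2 and 13 CPM (2.21 ± 0.22, adjusted p = 3.2e-06; 2.04 corrected). The groups did not overlap in these 3 genes, which was a condition of their choice, and the correction took the most from EFNA3. The shluc libraries of DHRS3 were spread widest. GPR37L1, an orphan receptor, rose by a log2 fold change of 2.14 ± 0.25 (1.70 corrected) and PCDH12, a protocadherin, by 2.04 ± 0.26 (1.84 corrected), both from under 3 CPM. The long noncoding RNA CYTOR, which has a near-identical copy and is uncertain, rose by 1.97 ± 0.33, or by 1.22 without shEZH2#3 replicate 1, where it had 54.2 CPM, with 19 and 16.5 in replicates 2 and 3.

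Falls in both fits included chaperone genes and genes of dividing cells. HSPA8, the constitutive cytosolic HSP70 chaperone, stood at 826, 902 and 1020 CPM in shluc and at 166, 216 and 344 in shEZH2#3 (-1.92 ± 0.22, adjusted p = 7.73e-06; -1.69 corrected). KPNA2, an importin alpha, stood at 240, 275 and 256 against 70.6, 87.8 and 99 CPM (-1.58 ± 0.16, adjusted p = 3.2e-06; -1.29 corrected). Neither gene overlapped between groups, which was a condition of their choice. LAMA1, a laminin chain, had -1.74 ± 0.22 (-1.66 corrected), REXO5, an RNA exonuclease, -1.69 ± 0.21 (-1.5 corrected) and ABCG2, a drug efflux transporter, -1.53 ± 0.25 (-1.0 corrected). STIL, needed for centriole duplication, had -1.63 ± 0.22, HSPH1, an HSP110 chaperone, -1.57 ± 0.17, ANLN, a cytokinesis scaffold, -1.57 ± 0.19, TOP2A, topoisomerase II alpha, -1.56 ± 0.19 and BUB1, a spindle checkpoint kinase, -1.54 ± 0.18. These 5 have GC contents of 39.1 to 42.5% and kept between -1.08 and -0.96 with the correction.

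**Figure D4:**
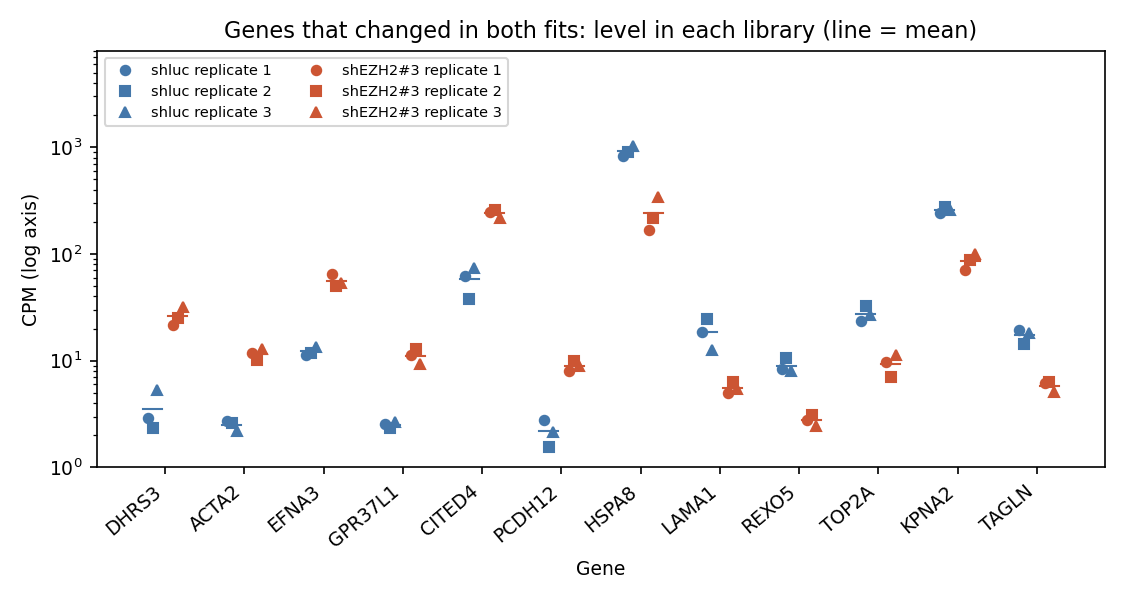
CPM of 12 genes called in both fits in each shluc (blue) and shEZH2#3 (red) library, on a log axis; symbols are replicates and short lines group means. The 6 genes on the left are higher and the 6 on the right lower in every shEZH2#3 library than in any shluc library, a condition of their choice.

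A few genes moved against the GC trend. Of the lowest GC tercile 68 genes were called higher and 1757 lower, and of the highest GC tercile 2466 higher and 66 lower. Besides mitochondrial sequences, the rises at low GC included GPNMB, a glycoprotein of lysosomes and melanosomes, with 2.21, 6.94 and 6.32 against 23.7, 17.8 and 10.4 CPM (1.74 ± 0.32, adjusted p = 0.00032; 2.14 corrected). The largest fall at high GC was TAGLN, an actin-binding protein of smooth muscle, with 19.4, 14.3 and 18 against 6.12, 6.3 and 5.14 CPM (-1.56 ± 0.18, adjusted p = 7.73e-06; -1.98 corrected). TAGLN thus fell where ACTA2, often named beside it as a contractile gene, rose. CKAP4, a reticulum membrane protein, had -1.18 ± 0.16 (-1.57 corrected), KLC1, a kinesin light chain, -0.93 ± 0.16 (-1.38), MTCL1, a microtubule crosslinker, -0.93 ± 0.19 (-1.30), IL27RA, a cytokine receptor chain, -0.92 ± 0.18 (-1.45) and TENT4A, a poly(A) polymerase, -0.84 ± 0.17 (-1.34). HSPA1A, the inducible HSP70, had -0.92 ± 0.20 (-1.54) and is uncertain because HSPA1B is nearly identical. For the genes that fell at high GC content the correction made the change larger.

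By mean CPM the largest gain was that of the unnamed gene ENSG00000266658, which stood at 33200, 20900 and 35000 CPM in shluc and at 95600, 41800 and 57800 in shEZH2#3. It rose by 1.13 ± 0.26 on the log2 scale (adjusted p = 0.00193), or by 0.75 without shEZH2#3 replicate 1. Mitochondrial RNAs, FOLR1 and ALDOA followed. FOLR1, a folate receptor, stood at 4780, 3590 and 6120 CPM in shluc and at 11600, 9470 and 10700 in shEZH2#3 (1.13 ± 0.18, adjusted p = 0.000123; 0.74 corrected). ALDOA, the glycolytic aldolase, stood at 5800, 4720 and 6500 against 10500, 11700 and 9210 CPM (0.89 ± 0.17, adjusted p = 0.00046), a call lost after the correction (0.22, adjusted p = 0.0912). Beside HSPA8, the losses included HSP90AB1, the constitutive HSP90, with 1130, 1280 and 1080 against 630, 721 and 669 CPM (-0.79 ± 0.15, adjusted p = 0.000435), and lactate dehydrogenase LDHA, with -0.64 ± 0.15 (adjusted p = 0.00314) and -0.24 corrected (adjusted p = 0.0784). The tubulins TUBA1B (-0.41 ± 0.16) and TUBB4B (-0.46 ± 0.16) and the elongation factor EEF1A1 (-0.52 ± 0.20) passed narrowly in the uncorrected fit and have near-identical copies. With the correction TUBA1B had -0.58 (adjusted p = 0.00157) and TUBB4B -1.07 (adjusted p = 2.32e-05), while EEF1A1 lost its call (-0.21, adjusted p = 0.443). Uncorrected, TUBA1B lost its call without shluc replicate 1 or 3 or shEZH2#3 replicate 1 or 2 (adjusted p = 0.0808 to 0.152). EEF1A1 lost its uncorrected call without shluc replicate 2 or 3 or shEZH2#3 replicate 1 or 2 (0.055 to 0.195), and TUBB4B without shluc replicate 1 or 3 or shEZH2#3 replicate 1 (0.0571 to 0.0845).

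The sign of 34 genes depended on the correction. The most abundant of them included the ribosomal protein gene RPS2, PPDPF, the corepressor TRIM28, the dynein chain DYNC2I2 and GPX4, which detoxifies lipid peroxides. GPX4 stood at 323, 206 and 398 CPM in shluc and at 451, 432 and 427 in shEZH2#3, with 0.50 ± 0.19 uncorrected (adjusted p = 0.0366) and -0.34 corrected (adjusted p = 0.0134). These 5 genes have GC contents of 62.5 to 68.2%, uncorrected log2 fold changes of 0.44 to 0.68 and corrected ones of -0.34 to -0.25. Without shluc replicate 2 the uncorrected call was lost in RPS2 (adjusted p = 0.0816), TRIM28 (0.0883), DYNC2I2 (0.179) and GPX4 (0.154), and it was lost in each of these without shEZH2#3 replicate 3 as well (0.0588 to 0.0936). The corrected call of each of the 5 genes was lost on leaving out at least 1 library, that of GPX4 without shluc replicate 1 (adjusted p = 0.0516) or shEZH2#3 replicate 2 (0.0538). No direction is given for these genes.

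Mitosis genes, the kinesins, kinases and kinetochore parts that segregate chromosomes, fell widely. Of 57 tested members 43 were called lower and none higher (75.4%, median -1.11, against 19.8% lower and a median of -0.01 over all genes). With the correction 37 were lower and none higher (64.9% against 13%, median -0.79). Members have a median GC content of 42.3%, in the range where the uncorrected median was -0.51. Summed over the list, mitosis genes had 3430 to 3570 CPM in shluc and 2080 to 2360 in shEZH2#3. SPC25, a kinetochore subunit, stood at 4.38, 5.82 and 5.89 against 1.09, 1.87 and 1.27 CPM (-1.93 ± 0.27, adjusted p = 3.04e-05; -1.45 corrected). NUF2, its partner in the same complex, had -1.76 ± 0.34 (-1.25 corrected).

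Replication genes moved in both directions. The lists here and below stand beside 24.4% higher and 19.8% lower of all tested genes, or 10.6% and 13% with the correction. The share of genes called also differed with abundance, and no list was matched for it. Of 47 tested members of the replication and E2F list 8 rose and 17 fell (17% and 36.2%, median -0.26), and 3 rose and 13 fell with the correction (6.38% and 27.7%, median -0.16). CDT1, a licensing factor for replication origins, stood at 178, 133 and 181 CPM in shluc and at 400, 459 and 345 in shEZH2#3 (1.29 ± 0.17, adjusted p = 2.01e-05; 0.58 corrected). MCM10, which starts the fork, had -1.16 ± 0.22 (-0.69 corrected), and RRM1, a subunit of ribonucleotide reductase, had -1.03 ± 0.16 (-0.57 corrected). The list's summed level, 4520 to 5390 CPM in shluc and 5870 to 6770 in shEZH2#3, was higher although more members fell. Nuclear transport genes had 21 falls and 3 rises of 27 (77.8% lower, median -0.61), and 13 and 1 with the correction (48.1%, median -0.34), with 8 corrected falls without shluc replicate 1 or shEZH2#3 replicate 2. Besides KPNA2 they included KPNB1, importin beta, at 90.7, 123 and 93.6 against 46.4, 42.8 and 46.3 CPM (-1.18 ± 0.15; -0.76 corrected), KPNA4 (-1.25 ± 0.20; -0.62) and TNPO1 (-1.2 ± 0.23; -0.59).

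Chaperone lists had more falls than rises. Heat shock protein genes had 23 falls and 1 rise of 37 (62.2% lower, median -0.65), and 25 and 1 with the correction (67.6%, median -0.47), against 19.8% and 13% of all genes, with 18 falls in both fits. Their summed level was 7090 to 7360 CPM in shluc and 4310 to 5520 in shEZH2#3. HSP90AA1, the inducible HSP90, stood at 75.9, 99.9 and 87.3 against 37.4, 30.6 and 35.7 CPM (-1.34 ± 0.15, adjusted p = 6.57e-06; -0.99 corrected). CHORDC1, an HSP90 cochaperone, had -1.31 ± 0.22 (-0.73 corrected). Endoplasmic reticulum chaperone genes had 17 falls and 2 rises of 28 (60.7% lower, median -0.50), and 11 and 0 with the correction (39.3%, median -0.24). HSPA5, the HSP70 of the reticulum, stood at 475, 629 and 563 against 209, 249 and 266 CPM (-1.2 ± 0.16; -0.89 corrected), and HSP90B1 had -1.05 ± 0.16 (-0.57 corrected). The summed level of this list overlapped between groups, at 6580 to 6820 and 6380 to 6750 CPM.

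Proteasome subunit genes had 15 falls and no rise of 33 (45.5% lower, median -0.31), and 14 falls and 1 rise with the correction (42.4%, median -0.29). Only 8 members fell in both fits. Of all genes 19.8% were lower, or 13% with the correction. The 4 members named are parts of the regulatory cap. PSMD7 stood at 53.4, 59.6 and 61.7 against 27.5, 29.9 and 28 CPM (-1.03 ± 0.14, adjusted p = 3.43e-05; -0.75 corrected). PSMD12 had -1.11 ± 0.17 (-0.55 corrected), PSMD11 -0.99 ± 0.15 (-0.79) and PSMD14, the deubiquitinase of the cap, -0.97 ± 0.21 (-0.65). In all 4, chosen for large changes called in both fits, the shEZH2#3 libraries lay below every shluc library. Of the 33 subunit genes 18 lay so, against 26% of all tested genes. The summed level of the list was 3690 to 4820 CPM in shluc and 3910 to 4260 in shEZH2#3.

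All 13 tested protein-coding genes of the mitochondrial genome rose (against 24.4% of all genes, median 1.42), and all 13 did with the correction (against 10.6%, median 1.59). Their summed level was 28700, 31100 and 28700 CPM in shluc and 88400, 62500 and 58700 in shEZH2#3. MT-ND1, a complex I subunit, stood at 2520, 2840 and 2450 against 14600, 8420 and 7080 CPM (1.95 ± 0.22, adjusted p = 6.23e-06). MT-CO1, a cytochrome oxidase subunit, stood at 8830, 9970 and 8330 against 18900, 17500 and 16600 CPM (0.97 ± 0.16, adjusted p = 0.000122), and MT-CO3 at 4200, 4510 and 4460 against 10800, 8310 and 7600 CPM (1.02 ± 0.16). These RNAs were higher in every shEZH2#3 library. The shortest of them owed much of their fold to shEZH2#3 replicate 1. MT-ND4L stood at 1320, 201 and 193 CPM in shEZH2#3 against 73.2 to 95.5 in shluc, and without replicate 1 the log2 fold change went from 2.81 to 1.28 (adjusted p = 6.53e-06). MT-ND3 went from 2.28 to 0.76 (adjusted p = 0.00186), MT-ND6 from 1.64 to 1.06 (adjusted p = 4.76e-05) and MT-ATP8 from 2.97 to 1.36 (adjusted p = 4.05e-06). All 13 were still called higher without that library. The nuclear copies MTATP6P1, MTCO3P12 and MTND4P12 rose by 2.87, 2.06 and 1.83 and are uncertain, since they share sequence with mitochondrial RNAs. Without that library MTATP6P1 had 1.16 and MTND4P12 1.2.

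Cytosolic ribosomal protein genes had 37 rises and no fall of 77 (48.1% higher, median 0.52), and 26 rises and 5 falls with the correction (33.8%, median 0.27). Only 17 members rose in both fits. Of all genes 24.4% were higher, or 10.6% with the correction. Of genes in the highest abundance tercile 45.9% were higher, or 17.2% with the correction. The uncorrected number of rises was 11 without shluc replicate 2, 16 without shEZH2#3 replicate 1, 53 without shluc replicate 3 and 20 with upper quartile scaling. The corrected number was 14 without shluc replicate 1, 11 without shluc replicate 2 and 16 without shEZH2#3 replicate 1. RPL37A stood at 225, 131 and 348 CPM in shluc and at 1380, 342 and 347 in shEZH2#3 (1.55 ± 0.39, adjusted p = 0.00422), with overlapping groups. RPS29 (1.42 ± 0.42), RPL39 (1.40 ± 0.41) and RPL38 (1.36 ± 0.40) had the same high value in shEZH2#3 replicate 1. Without it the log2 fold changes were 0.55 for RPL37A (adjusted p = 0.0567), 0.23 for RPS29 (0.446), 0.21 for RPL39 (0.425) and 0.26 for RPL38 (0.32), and without shluc replicate 2 the calls of RPS29 (0.0958), RPL39 (0.0896) and RPL38 (0.0848) were lost too. Genes of this class have processed copies in the genome and are uncertain.

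Among damage repair genes the calls depended on the list and on the correction. Homologous recombination and Fanconi genes had 10 falls and 5 rises of 32 (31.2% lower, median -0.43), and 2 and 2 with the correction (6.25% each way, median -0.08), which is under the 13% lower and 10.6% higher of all genes. Their median GC content, 42.3%, lies in a decile whose uncorrected median was -0.51. FANCD2 had -1.04 ± 0.19 (-0.58 corrected) and its partner FANCI -1.11 ± 0.17 (-0.63). End joining and damage signalling genes had 10 falls and 3 rises of 28 (35.7% lower, median -0.45), and 10 and 1 with the correction (35.7%, median -0.34), with 5 falls in both fits. PRKDC, the DNA-dependent protein kinase, stood at 172, 264 and 129 against 79.9, 92.2 and 93.8 CPM (-1.09 ± 0.20, adjusted p = 0.000321; -0.64 corrected). WEE1, which holds cells before mitosis, had -1.27 ± 0.18 (-0.73) and CLSPN, a mediator of checkpoint kinase activation, -1.61 ± 0.32 (-1.19).

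Of 30 tested p53 response genes 11 rose and 2 fell (36.7% higher against 24.4% of all genes, median 0.06), and 7 rose and none fell with the correction (23.3% against 10.6%, median 0.13). CDKN1A, which encodes the cell cycle inhibitor p21, stood at 149, 120 and 151 against 277, 292 and 280 CPM (1.02 ± 0.15, adjusted p = 6.57e-05; 0.49 corrected, adjusted p = 0.00118). GADD45B, a stress-induced growth arrest gene, had 1.57 ± 0.18 (1.05 corrected). Apoptosis regulators had 9 rises and 5 falls of 28 (32.1% and 17.9%, against 24.4% and 19.8% of all genes, median 0.02), and 7 and 3 with the correction (25% and 10.7%, against 10.6% and 13%, median 0.18). CASP9, the initiator caspase of the mitochondrial pathway, stood at 109, 79.9 and 94.2 against 207, 246 and 271 CPM (1.35 ± 0.16, adjusted p = 9.99e-06; 1.2 corrected). The pro-apoptotic BMF had 1.38 ± 0.21 (1.10) and BAX 1.08 ± 0.18 (0.48).

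Immune signalling lists were mixed. Cytokine and NF-kB target genes had 12 rises and 3 falls of 24 (50% higher, median 0.58), and 14 and 3 with the correction (58.3%, median 0.51), with several members at low levels. TNF stood at 0.23, 0.279 and 0.192 CPM in shluc and at 1.6, 2 and 1.82 in shEZH2#3 (2.90 ± 0.53, adjusted p = 0.000284; 2.58 corrected). The chemokine CXCL5 went the other way (-2.14 ± 0.51, adjusted p = 0.00245; -1.63 corrected), from at most 2.4 CPM. CXCL6 had 2.07 ± 0.58, or 3.03 without shluc replicate 3, and CXCL2 had 1.81 ± 0.58 and lost its call without shluc replicate 3 (adjusted p = 0.0716) or shEZH2#3 replicate 1 (0.112). Interferon response genes had 10 rises and 6 falls of 34 (29.4% and 17.6%, median -0.08), near the 24.4% and 19.8% of all genes, and 6 and 4 with the correction (17.6% and 11.8%, against 10.6% and 13%, median -0.01). STAT2, which carries the interferon signal to the nucleus, stood at 22.6, 21.9 and 16.2 against 49.6, 52.1 and 42.9 CPM (1.25 ± 0.16, adjusted p = 2.22e-05; 1.18 corrected). IFITM1, a member of a family of near copies, had 1.5 ± 0.19 (1.12), LGALS3BP 1.19 ± 0.16 (0.54) and IFIT2 -1.16 ± 0.26 (-0.68). MHC class I presentation genes had 10 rises and 3 falls of 21 (47.6% higher, median 0.45), and 4 and 3 with the correction (19%, median 0.06). The proteasome activator PSME1 had 0.95 ± 0.19 (0.63) and the chaperone CANX -0.89 ± 0.15 (-0.36).

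Metabolic lists leaned higher before the correction. Lysosome genes had 23 rises and 4 falls of 32 (71.9% higher against 24.4% of all genes, median 0.56), and 13 and 1 with the correction (40.6% against 10.6%, median 0.18). Their median GC content, 54.9%, lies in a decile whose uncorrected median was 0.31. HEXA, a subunit of beta-hexosaminidase, stood at 104, 82.7 and 101 against 223, 198 and 202 CPM (1.11 ± 0.15, adjusted p = 2.57e-05; 1.10 corrected). The glycogen-degrading GAA had 1.18 ± 0.17 (0.46) and the sulfatase GALNS 1.0 ± 0.16 (0.40). Glycolysis and hypoxia genes had 16 rises and 3 falls of 30 (53.3% higher, median 0.41), and 11 and 2 with the correction (36.7%, median 0.15), at the same median GC content. The 11 corrected rises were 5 without shluc replicate 1, 6 without shEZH2#3 replicate 2 and 7 without shEZH2#3 replicate 3. GPI, which converts glucose 6-phosphate to fructose 6-phosphate, stood at 903, 773 and 840 against 1460, 1690 and 1390 CPM (0.85 ± 0.15, adjusted p = 0.000324; 0.68 corrected). ALDOC had 0.91 ± 0.14 (0.45), ENO2 0.89 ± 0.15 (0.55) and the oxygen sensor EGLN3 0.88 ± 0.21 (0.96).

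Sterol and fatty acid synthesis genes had 14 rises and 6 falls of 30 (46.7% and 20%, against 24.4% and 19.8% of all genes, median 0.24), and 6 and 2 with the correction (20% and 6.67%, against 10.6% and 13%, median 0.10). SREBF1, the transcription factor of lipid synthesis, had 1.25 ± 0.17 (0.54 corrected) and FASN, fatty acid synthase, stood at 674, 549 and 564 against 1080, 1490 and 1300 CPM (1.12 ± 0.16; 0.45). The sterol enzyme LSS rose (0.95 ± 0.15; 0.46). Of the fatty acid activating genes, ACSL4, which prefers polyunsaturated chains, stood at 1.47, 0.399 and 1.1 against 8.64, 4.86 and 4.97 CPM (2.65 ± 0.35, adjusted p = 2.02e-05; 3.20 corrected). NRF2 targets and glutathione genes had 5 rises and 8 falls of 25 (20% and 32%, median -0.11), and 2 and 10 with the correction (8% and 40%, median -0.34), with 4 falls in both fits. Falls there included SLC7A11, the cystine importer, at 7.05, 7.62 and 4.84 against 1.94, 1.93 and 1.6 CPM (-1.83 ± 0.27; -1.22 corrected), TXNRD1, thioredoxin reductase (-1.07 ± 0.15; -0.68), and NFE2L2, which encodes NRF2 (-0.99 ± 0.19; -0.67).

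Adhesion genes split by member. Of all genes 24.4% were higher and 19.8% lower, or 10.6% and 13% with the correction. Integrin genes had 4 rises and 6 falls of 11 (36.4% and 54.5%, median -0.57), and 4 and 2 with the correction (36.4% and 18.2%, median -0.11). ITGA5, a fibronectin receptor subunit, stood at 476, 478 and 425 against 1060, 1250 and 1010 CPM (1.27 ± 0.15, adjusted p = 1.13e-05; 0.73 corrected), and ITGB4, of hemidesmosomes, at 218, 180 and 193 against 426, 521 and 443 CPM (1.23 ± 0.16; 0.59). ITGA6, the partner of ITGB4, fell (-1.11 ± 0.20; -0.59). Matrix genes had 13 rises and 12 falls of 35 (37.1% and 34.3%, median 0.27), and 5 and 8 with the correction (14.3% and 22.9%, median -0.07). The laminin chain LAMB2 rose (1.68 ± 0.16; 1.11) where LAMA1 fell, and the protease inhibitor SERPINE2 fell (-1.70 ± 0.27; -1.34). Tight junction and adhesion genes had 6 rises and 6 falls of 17 (35.3% each way, median -0.38), and 4 and 4 with the correction (23.5% each way, median -0.28). TJP3 rose (1.76 ± 0.16; 1.06), while TJP1 (-1.10 ± 0.21; -0.63) and EPCAM (-1.87 ± 0.36; -1.67) fell.

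Genes that Polycomb often represses in development were called higher at or below the share of all genes. Of 39 HOX genes 23 were tested, with 3 rises and 1 fall (13% higher against 24.4% of all genes, median 0.13), and 1 and 3 with the correction (4.35% higher against 10.6%, median -0.11). HOXB13, the most 5′ gene of its cluster, stood at 63.1, 49.4 and 56.1 CPM in shluc and at 83.8, 99.1 and 104 in shEZH2#3 (0.77 ± 0.15, adjusted p = 0.000619; 0.30 corrected, adjusted p = 0.0379, with that call lost on leaving out any 1 of the 6 libraries but shEZH2#3 replicate 1). Of 23 tested developmental factors 5 rose and 3 fell (21.7% higher, near the 24.4%, median -0.15), and 1 rose and 8 fell with the correction (34.8% lower against 13%, median -0.45). TBX1 stood at 58, 39.3 and 56 against 116, 168 and 121 CPM (1.40 ± 0.18, adjusted p = 2.22e-05; 0.55 corrected). SOX9 fell (-0.96 ± 0.29, adjusted p = 0.0109; -0.98 corrected), from 3.07 to 3.67 CPM to 1.55 to 1.89. DLX1 and DLX2, at most 1.96 CPM, had -2.27 ± 0.76 and -1.36 ± 0.45. DLX1 lost its call without shluc replicate 3 (adjusted p = 0.0723), shEZH2#3 replicate 1 (0.0698) or shEZH2#3 replicate 3 (0.0502). DLX2 lost its call without shluc replicate 3 (0.0784), shEZH2#3 replicate 1 (0.0732) or shEZH2#3 replicate 2 (0.0529). Members of these lists that stayed under the count filter, 16 HOX genes among them, were not tested.

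**Figure D5:**
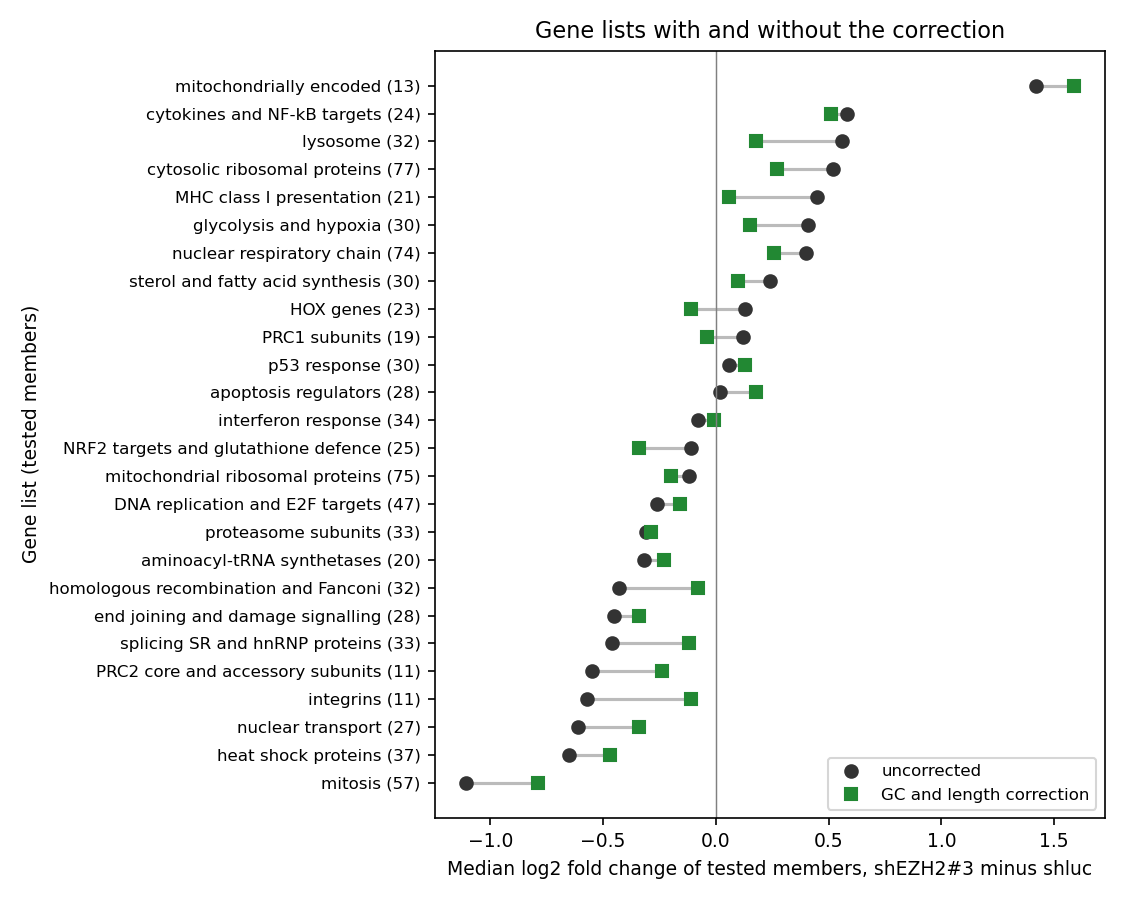
Median log2 fold change (shEZH2#3 minus shluc) of the tested members of 26 gene lists, uncorrected (black circles) and with the GC and length correction (green squares); the number of tested members stands in parentheses. Mitosis genes have the lowest median in both fits (-1.11 and -0.79) and mitochondrially encoded genes the highest (1.42 and 1.59).

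The 2 hairpins share the shluc libraries, so their values against it are set side by side without a measure of likeness. EZH2 had -0.96 with shEZH2#3 and -0.94 with shEZH2#1 (adjusted p = 0.00163), while 44.2% of tested genes were called with shEZH2#3 and 19% with shEZH2#1. CITED4 had 2.05 and 0.58 (adjusted p = 0.0421) uncorrected, and 1.14 and -0.26 (adjusted p = 0.0711) with the correction, so its sign with shEZH2#1 depends on the correction. EFNA3 had 2.20 and -0.10 (adjusted p = 0.71) uncorrected, and 1.51 and -0.62 (adjusted p = 0.0144) corrected. DHRS3 had 2.91 and 1.25, KPNA2 -1.58 and -0.93, HSPA8 -1.92 and -0.57 (adjusted p = 0.0662), LAMA1 -1.74 and -1.22 and ACSL4 2.65 and 3.07. TAGLN had -1.56 and 0.02 (adjusted p = 0.957), or -1.98 and -0.22 (adjusted p = 0.234) corrected. List medians with shEZH2#3 and shEZH2#1 were -1.11 and -0.50 for mitosis, -0.65 and -0.27 for heat shock proteins, 0.56 and -0.05 for lysosome genes and 1.42 and -0.85 for mitochondrially encoded genes. In the lowest and highest GC deciles the medians with shEZH2#1 were -0.27 and 0.47.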

How the data were processed

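The authors deposited estimated counts of Ensembl genes, not normalized. Per the file values, library totals differ and 15.21 to 18.55% of nonzero values in the 6 libraries carry decimals. Per the labels' protocols, polyadenylated RNA was made into strand-marked libraries. GRCh38 (hg38) is the build, and StringTie, HISAT2 and fastp are the tools, per the submitters' processing notes. How reads were counted (annotation, strand, shared reads) is not stated in the labels or files used, so overlapping genes and near copies are uncertain. Symbols came from a naming table (51996 of 57905 identifiers), GENCODE 29 (342 more) or neither (5567, with 6.43 to 12% of counts in the 6 libraries).

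Counts were rounded and tested with edgeR 4.0.16 (R 4.3.3): TMM scaling, filterByExpr (13252 genes kept), 1 quasi-likelihood model of all 9 libraries with 3 group means, and Benjamini-Hochberg adjustment over all tested genes, called at 0.05. CPM is on the TMM-scaled library size. The GC and length correction is a smooth per library (span 0.3) on GC content, then log length, of the longest GENCODE 29 transcript (97.7% of tested genes), entered as an offset. SE is the unshrunken fold change over the square root of F. The biological coefficient of variation was 0.177, and 0.138 with the correction. A promoter is the RefSeq window from 250 bases before to 50 after the start.

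Members, the 41 gene lists (1238 of 1283 entries found) and the correction were chosen with earlier results of these data known, so no list count is independent evidence. Genes were named by rule: subunits and enzymes of the lysine 27 balance with CDKN1A, then the 12 largest rises and falls called in both fits (mean of at least 5 CPM, groups not overlapping), the 8 largest against the GC trend each way, the 6 largest gains and losses in CPM, the 6 most abundant with opposite calls, and up to 4 members per list. Some genes so chosen are not reported here. Same-numbered libraries did not deviate together (see the block fit in the closing section). Alternatives were DESeq2 1.42.0, limma 3.58.1 (voom), upper quartile or RLE scaling, other filters, 6 libraries only, the replicate block, leaving out single libraries and testing against a fold of 1.5. Both fits were also run on counts simulated from the levels and spread of these data, with no GC or length trend put in. Each recovered 8.2% of simulated log2 changes of 0.5 (98 genes) and 62.4% of those of 1 (93 genes), among 12774 genes. In the data 44.2% of genes were called. With so few changed genes the adjustment was stricter in the simulation, so these shares do not give the power of the comparison itself. Without such a trend the simulation cannot show how well the correction removes one.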

Additional observations from a re-analysis of the deposited data

Results flagged for a closer look

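In 6 of the named genes the 2 hairpins gave calls of opposite direction against shluc, and the difference between the hairpins (shEZH2#3 minus shEZH2#1) was tested in the same edgeR fit. MT-ND1 stood at 1460, 1310 and 1500 CPM in shEZH2#1, below every shluc library, and at 7080 or more in shEZH2#3; the hairpins differed by a log2 fold change of 2.82 ± 0.22 (adjusted p = 7.8e-08), or 2.89 with the GC and length correction. MT-CO1 stood at 4940, 4370 and 4900 CPM in shEZH2#1 and differed by 1.90 ± 0.16 (adjusted p = 1.62e-07; 2.11 corrected). MT-CO3 stood at 2240, 2390 and 2260 CPM and differed by 1.96 ± 0.17 (adjusted p = 1.95e-07; 2.08 corrected). The 3 mitochondrial RNAs had log2 fold changes of -0.87, -0.93 and -0.94 against shluc with shEZH2#1, where they had 1.95, 0.97 and 1.02 with shEZH2#3. All 3 shEZH2#3 libraries lay above, and all 3 shEZH2#1 libraries below, the shluc libraries.

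CASP9 stood at 50.6, 48.9 and 58.7 CPM in shEZH2#1 and differed between the hairpins by 2.20 ± 0.17 (adjusted p = 5.5e-08; 2.01 corrected), with 1.35 for shEZH2#3 and -0.84 for shEZH2#1 against shluc. EGR1, an immediate early transcription factor of the ERK pathway, stood at 6.54, 8.93 and 6.18 CPM in shluc, at 20.8, 16.8 and 11.5 in shEZH2#3 and at 2.12, 2.48 and 2.94 in shEZH2#1. EGR1 differed by 2.71 ± 0.25 (adjusted p = 3.34e-07; 2.48 corrected), with 1.18 and -1.53 against shluc. CDH5, the cadherin of endothelial junctions, stood at 19.2, 19.7 and 13.4 CPM in shluc, at 31.7, 31.1 and 27 in shEZH2#3 and at 7.92, 7.61 and 7.13 in shEZH2#1. CDH5 differed by 1.99 ± 0.18 (adjusted p = 3.34e-07; 1.76 corrected), with 0.78 and -1.20 against shluc. For all 6 genes, so chosen, the 3 groups did not overlap. No group has the 4 libraries that the test for a library far from the rest of its group needs.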

How the results depend on the processing

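Each alternative changed 1 choice from the uncorrected edgeR fit unless it names 2. Against 5861 calls there were 3132 with the GC and length correction, 2507 with GC alone, 2838 with the replicate block and the correction, and 961 at a minimum fold of 1.5, a stricter test by construction; calls higher were 1404, 1098, 1279 and 677, and calls lower 1728, 1409, 1559 and 284. RLE scaling (5825), upper quartile scaling (6141), DESeq2 (5731), limma-voom (5876), no filter (5889), a strict filter (5149), the 6 libraries alone (5322) and leaving out 2 abundant unnamed genes (5866) stayed within 1.5 times. The replicate block gave 5482 calls, 5410 of them shared in direction; same-numbered libraries correlated at -0.035, 0.004 and -0.107, so the numbers were not taken as paired libraries. The rank correlation with GC content, 0.69, was 0.41 without a filter and 0.14 with the part before the coding sequence. In the order correction, GC alone, block with correction and minimum fold, falls of nuclear transport genes were 13, 12, 12 and 6, falls of reticulum chaperones 11, 10, 11 and 2 and rises of lysosome genes 13, 11, 12 and 7. Falls at the minimum fold were 28 in mitosis, 8 in heat shock and 3 in proteasome genes. Ribosomal protein rises were 20 with GC alone or upper quartile scaling and 4 at the minimum fold, cytokine rises 7 with the strict filter and 7 at the minimum fold, and glycolysis rises 5 with GC alone, 10 with the block and correction and 1 at the minimum fold. Beside the minimum fold and the filters, which test another hypothesis or other genes, the cause was not tested. Leaving out each library gave 4251 to 5823 calls (2479 to 3218 higher, 1772 to 2605 lower) uncorrected and 2214 to 2957 (1076 to 1304 higher, 1138 to 1703 lower) corrected, GC rank correlations of 0.63 to 0.71, medians of -0.68 to -0.48 and 0.57 to 0.80 in the end deciles and differences of 0.95 to 1.10 in the libraries' GC trend. List counts ranged over 40 to 43 (36 to 37 corrected) for mitosis, 20 to 22 (19 to 24) for heat shock, 18 to 21 (8 to 12) for nuclear transport, 14 to 16 (11 to 14) for proteasome, 14 to 16 (10 to 12) for reticulum chaperones, 13 in every case for mitochondrially encoded, 19 to 22 (10 to 14) for lysosome, 11 to 53 (11 to 35) for ribosomal proteins, 11 to 13 (10 to 12) for cytokines and 13 to 16 (5 to 9) for glycolysis. Of 135 named genes, 3 lost their call with DESeq2 or with RLE scaling, 2 without a filter, 4 with upper quartile scaling, 43 at the minimum fold and 4 to 12 on leaving out a library. Signs changed in few genes. With the correction, GC alone and the block with correction, the values were -0.33, -0.17 and -0.33 for RPS2, -0.34, -0.10 and -0.33 for PPDPF, -0.25, -0.27 and -0.25 for TRIM28, -0.27, -0.26 and -0.27 for DYNC2I2, -0.34, -0.20 and -0.34 for GPX4 and 0.32, 0.23 and 0.31 for KDM6A, and SUZ12 had 0.02 with the correction. Leaving out single libraries moved EZH1 over -0.24 to 0.06 (-0.17 to 0.12 corrected), corrected SUZ12 over -0.27 to 0.30 and corrected EEF1A1 over -0.38 to 0.05. Corrected calls of JARID2, TNPO1, PSMD14, MCM10, IFIT2, CXCL5, CXCL2, GAA, RPS29, RPL38, ITGA6, EGR1, DLX1, HOXB13, SYNCRIP and CDH5 were lost without at least 1 library. A p above the threshold does not show that a gene was unchanged, since with 3 libraries a group and a median SE of 0.2 small changes on the log2 scale were not detectable here.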

Other observations

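Of 33 tested genes of the SR and hnRNP proteins, which bind RNA in splicing, 19 were called lower and none higher (57.6%, against 19.8% lower of all genes, median -0.46), and 10 lower and 1 higher with the GC and length correction (30.3% against 13%, median -0.12). Their median GC content, 42.1%, lies in a decile whose uncorrected median was -0.51. SRSF2, a splicing factor of the SR family, stood at 259, 275 and 238 CPM in shluc and at 113, 144 and 167 in shEZH2#3 (-0.86 ± 0.16, adjusted p = 0.00034; -0.55 corrected). HNRNPH1, which binds runs of G in RNA, stood at 88.4, 111 and 88.9 against 58, 52.3 and 55.5 CPM (-0.80 ± 0.14; -0.86 corrected). SYNCRIP, another RNA-binding protein of this class, had -1.01 ± 0.15 and -0.40 corrected. Aminoacyl-tRNA synthetase genes had 9 falls and 3 rises of 20 (45% and 15%, median -0.32), and 5 and 2 with the correction (25% and 10%, median -0.23). IARS1, for isoleucine, stood at 49, 71.1 and 47.6 against 24, 26.7 and 25.5 CPM (-1.14 ± 0.17, adjusted p = 5.5e-05; -0.67 corrected), and FARSB, a subunit of the enzyme for phenylalanine, at 20.9, 20.9 and 19.6 against 8.75, 10.4 and 9 CPM (-1.13 ± 0.16, adjusted p = 3.38e-05; -0.63 corrected). QARS1, for glutamine, went the other way, from 257, 218 and 229 to 437, 473 and 454 CPM (0.95 ± 0.14, adjusted p = 7.03e-05; 0.60 corrected). In the 5 genes given by library here, chosen for large changes called in both fits, the groups did not overlap. The same held in 52.8% of all tested genes.

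Over all tested genes 24.4% were called higher and 19.8% lower, or 10.6% and 13% with the correction, and the lists here are given beside those shares. Respiratory chain genes of the nucleus had 28 rises and 6 falls of 74 (37.8% and 8.11%, median 0.40), and 13 and 6 with the correction (17.6% and 8.11%, median 0.26), while mitochondrial ribosomal protein genes had 10 rises and 12 falls of 75 (13.3% and 16%, median -0.12), and 1 and 19 with the correction (1.33% and 25.3%, median -0.20). Genes of the ATF4 pathway and amino acid supply had 10 rises and 5 falls of 23 (43.5% and 21.7%, median 0.35), and 3 and 7 with the correction (13% and 30.4%, median -0.02). Immediate early and ERK feedback genes had 8 rises and 4 falls of 25 (32% and 16%, median 0.24), and 3 and 8 with the correction (12% and 32%, median 0.08). Actin contractile genes had 6 rises and 7 falls of 21 (28.6% and 33.3%, median -0.06), and 2 and 6 with the correction (9.52% and 28.6%, median -0.19). Fatty acid oxidation and acyl-CoA synthetase genes had 6 rises and 4 falls of 21 (28.6% and 19%, near the shares of all genes, median 0.05), and 3 and 2 with the correction (14.3% and 9.52%, median -0.05). Of 10 tested cornified envelope and desmosome genes 6 rose and 3 fell (60% and 30%, median 0.57), and 3 and 1 with the correction (30% and 10%, median 0.16). Replication-dependent histone genes, whose transcripts mostly lack the poly(A) tail that this library type selects, had 2 rises of 18 (11.1%, median 0.05), and 1 rise and 2 falls with the correction (5.56% and 11.1%, median -0.31). All of these lists were chosen with earlier results of these data known.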
